A study of Homo sapiens with 8 samples.

Results

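The Krüppel-like factors (KLF) are zinc finger transcription factors that bind GC-rich and CACCC-type DNA elements. The 10 KLF genes described here (KLF2, KLF3, KLF4, KLF5, KLF6, KLF9, KLF10, KLF11, KLF13 and KLF16) were taken by name out of 12715 genes listed for 2 human thyroid cancer cell lines. The BCPAP table listed all 10, and the CAL-62 table listed 9, without KLF9. Transcripts were measured by poly(A)-selected RNA sequencing. The 4 groups were CAL-62 cells given THZ1 at 100 nM for 6 h, CAL-62 cells given the vehicle DMSO, BCPAP cells given THZ1 in the same way, and BCPAP cells given DMSO, with 2 libraries in each. THZ1 binds CDK7 covalently and blocks it. CDK7 is part of TFIIH, a factor that RNA polymerase II needs to start transcription, and the comparison addresses how transcription in the lines depends on it. The labels call both lines anaplastic thyroid carcinoma. Medium and serum content differed between the lines, so effects of line and of medium cannot be told apart. Nothing in the labels says whether a group's 2 libraries go back to separate cultures, and p-values thus measure a spread between libraries that may be technical.

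KLF proteins share a DNA-binding domain of zinc fingers at their C-terminal end and differ in the N-terminal part, which recruits activating or repressing partners. KLF2 and KLF4 are close relatives known from endothelial cells, where both can be induced through the kinase ERK5 and MEF2 factors, and are linked to quiescence and differentiation. KLF5 is mostly described as a promoter of growth in epithelia, KLF6 as a growth inhibitor, and KLF10 and KLF11 as genes induced early by TGF-beta. Messenger RNAs of several KLF genes are short-lived, as is common for early response genes.

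The values are of an RPKM type, that is, reads per gene scaled to gene length and to a factor per library, so levels can be compared between genes. That factor did not follow the reads in listed genes. Each library had between 16681826 and 19988647 reads in listed genes, and the KLF genes had 77 to 4881 reads each per library, with a median of 690.5. The thyroid genes TG, TSHR and SLC5A5 were listed for neither line. PAX8, a lineage factor of thyroid follicular cells, was listed for both, and NKX2-1 and FOXE1 for BCPAP. Of 5 epithelial markers, the keratin genes KRT7, KRT8 and KRT18 were listed for both lines, EPCAM for CAL-62 only and CDH1 for neither. None of 4 blood and 3 endothelial markers was listed, and COL1A1 was the only fibroblast marker listed of 3. PAX8 fell in CAL-62, with 5.20 and 29.8 in the THZ1 libraries, against 91.1 and 117 in the DMSO libraries (log2 change −2.92, SE 0.64, limma adjusted p 0.0469). A fit on the CAL-62 libraries alone called 0 genes, so the PAX8 call was lost there. The part of PAX8 in the KLF results was not tested.

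The sequences before 3 KLF genes are shown because KLF2 and KLF4 had the lowest log2 changes among KLF genes in CAL-62 and KLF5 the highest. Each is the 250 bases before a RefSeq start of transcription, 5′ to 3′ on the gene's strand, in GRCh38.p14. KLF2 is at chr19:16324576-16324825 on the plus strand, KLF4 at chr9:107489770-107490019 on the minus strand, and KLF5 at chr13:73058755-73059004 on the plus strand. Capitals mark matches, on either strand, to the GC box GGGCGG, the core CACCC of KLF binding, the TATA-type TATANA, the MEF2 consensus and the CArG box.
KLF2: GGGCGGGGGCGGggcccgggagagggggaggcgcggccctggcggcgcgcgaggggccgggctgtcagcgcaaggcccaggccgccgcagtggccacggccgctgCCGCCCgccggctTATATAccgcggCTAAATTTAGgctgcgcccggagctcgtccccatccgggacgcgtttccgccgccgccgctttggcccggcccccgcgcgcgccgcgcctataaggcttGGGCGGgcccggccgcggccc
KLF4: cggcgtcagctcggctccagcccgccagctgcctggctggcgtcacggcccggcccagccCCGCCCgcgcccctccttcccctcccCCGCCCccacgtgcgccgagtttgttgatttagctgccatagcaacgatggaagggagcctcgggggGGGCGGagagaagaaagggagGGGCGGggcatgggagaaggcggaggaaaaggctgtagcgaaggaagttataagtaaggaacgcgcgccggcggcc
KLF5: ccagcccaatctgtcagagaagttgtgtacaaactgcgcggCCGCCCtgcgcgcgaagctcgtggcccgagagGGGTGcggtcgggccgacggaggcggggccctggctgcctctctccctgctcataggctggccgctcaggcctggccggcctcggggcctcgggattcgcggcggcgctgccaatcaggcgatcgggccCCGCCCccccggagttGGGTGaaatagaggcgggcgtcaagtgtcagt

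The KLF2 stretch held 4 GC boxes, of which a pair adjoin at its 5′ end, 1 TATANA match from −132 to −127 and 1 match to the MEF2 consensus from −120 to −111, counted back from the start site. The KLF4 stretch held 4 GC boxes, and that of KLF5 held 2 GC boxes and 2 CACCC cores. RefSeq gives KLF5 a second, upstream start, whose stretch at chr13:73054726-73054975 held no GC box, 1 CACCC core and 2 TATANA matches. These 2 matches overlap, at −196 to −191 and −194 to −189. The GC content of that stretch was 40.8%, against 70.8% in the stretch shown. No 2 of the marked matches overlapped in these 3 stretches. Over all 35116 RefSeq promoter stretches of this length, 42.6% held the GC box, 54.7% CACCC, 17.7% TATANA, 2.80% the MEF2 consensus and 1.16% the CArG box. RefSeq stretches were matched for 8 of the 10 KLF genes, 10 stretches in all, with a GC content between 32.4% (KLF9) and 86.4% (KLF16), against a median of 58% over all stretches. The GC content was 80% for KLF2 and 69.2% for KLF4. A match describes the letters only and is not evidence of binding.

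In CAL-62, none of the 9 KLF genes passed the test after THZ1. By deposited values, KLF2, KLF3, KLF4 and KLF13 were below, and KLF5 above, both DMSO libraries in each THZ1 library. The test was limma on log2(value + 1), two-sided with Benjamini-Hochberg adjustment over 11362 genes, and an adjusted p under 0.05 counted as a call. Of all genes tested, 4.62% were called, 0.581% higher and 4.04% lower. The groups did not overlap, with THZ1 lower, for 27.4% of all genes and, with THZ1 higher, for 30.1% (57.5% together), against 4 and 1 of the 9 KLF genes. The median change of the 9 was −0.04, and that of all genes 0.03. Unadjusted p was under 0.05 for 4 of the 9 (KLF2, KLF3, KLF4 and KLF5) and for 3418 of all 11362 genes.

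**Figure D1:**
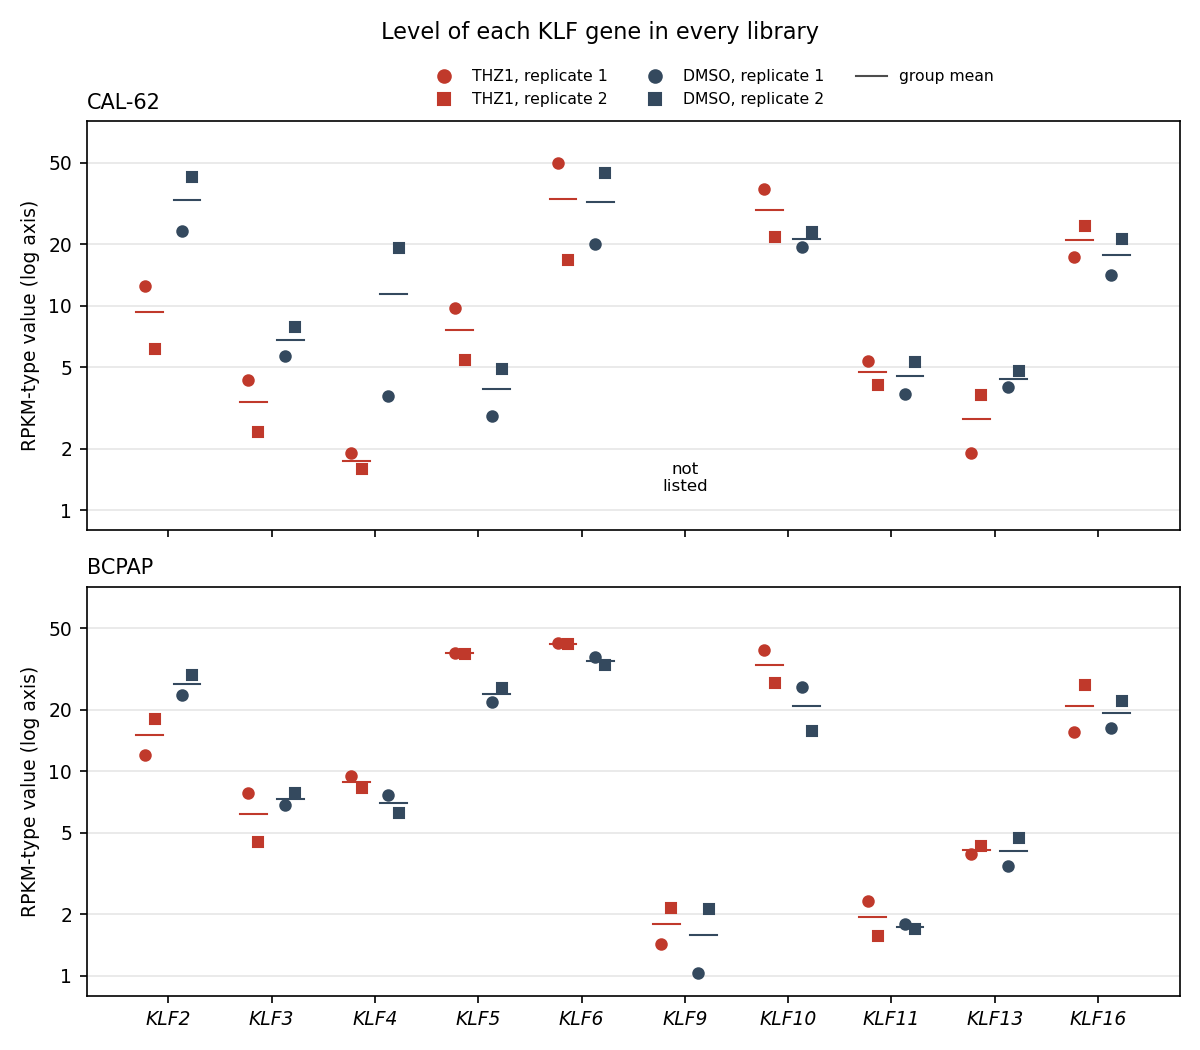
RPKM-type value (log axis) of each KLF gene in every library, CAL-62 above and BCPAP below, with THZ1 libraries left of DMSO libraries. Lines are group means of 2 libraries. KLF2 in CAL-62 lay at 12.6 and 6.14 in THZ1 libraries, below 23.3 and 42.5 in DMSO libraries, and KLF4 in CAL-62 DMSO libraries was spread from 3.63 to 19.1.

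KLF2, a factor associated with quiescence in endothelial and T cells, was the KLF gene nearest to the threshold. It had values of 12.6 and 6.14 in the CAL-62 THZ1 libraries (287 and 190 reads), against 23.3 and 42.5 in the DMSO libraries (831 and 1658 reads). Both THZ1 libraries were lower than both DMSO libraries, and the libraries of each group differed from each other about as much as the nearest libraries of the 2 groups. The group means were 9.35 ± 4.54 with THZ1 and 32.9 ± 13.6 with DMSO (SD, n = 2 each). KLF2 stood at the 51.2th percentile of listed genes with THZ1 and at the 82.4th with DMSO. The log2 change was −1.72 (SE 0.40, 95% interval −2.65 to −0.80), with a limma adjusted p of 0.0522. In these bulk libraries, fewer cells that express the gene and less RNA per cell cannot be told apart. The limma adjusted p passed when BCPAP THZ1 replicate 1 (0.0475), BCPAP THZ1 replicate 2 (0.0474) or CAL-62 THZ1 replicate 1 (0.0495) was left out, and under scaling to the upper quartile (0.0344) or to ribosomal protein genes (0.00741). It was highest, at 0.262, without CAL-62 DMSO replicate 2.

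In BCPAP, KLF2 had values of 12.0 and 18.1 in the THZ1 libraries, against 23.6 and 29.7 in the DMSO libraries. Here too both THZ1 libraries were the lower ones, and the log2 change was −0.80 (SE 0.40, 95% interval −1.73 to 0.12, limma adjusted p 0.932). Across BCPAP no gene passed the test, so 0% of 11743 genes were called. Unadjusted p was under 0.05 for 471 of them, and limma-voom on recovered reads called 0 as well. The change of KLF2 in CAL-62 minus that in BCPAP was −0.92 (SE 0.56, 95% interval −2.23 to 0.39), with a limma adjusted p of 0.843. In that comparison of the responses 0% of 10653 genes were called, while 562 had an unadjusted p under 0.05 and limma-voom again called 0. Neither an equal nor an unequal response of KLF2 in the 2 lines was therefore shown.

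Within a library, KLF2 also took a smaller share of the summed level of the 9 KLF genes listed for both lines. This measure does not depend on the library factor. In CAL-62 that share was 8.95% and 7.12% in the THZ1 libraries, against 24.1% and 24.5% in the DMSO libraries. In BCPAP it was 7.04% and 10.7% in the THZ1 libraries, against 16.4% and 20.2% in the DMSO libraries. In each line the 2 THZ1 libraries were below the 2 DMSO libraries. A share is relative, and in both lines the share of KLF5 moved the other way, with 6.98% and 6.31% in CAL-62 THZ1 libraries, against 3.01% and 2.84% in DMSO libraries. The KLF5 share in BCPAP was 22.3% and 22.1% with THZ1, against 15.3% and 17.5% with DMSO. The summed level itself had no common direction, with 140 and 86.2 in CAL-62 THZ1 libraries, against 96.6 and 173 in DMSO libraries. In BCPAP it was 170 in each THZ1 library, against 143 and 147 in the DMSO libraries.

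**Figure D2:**
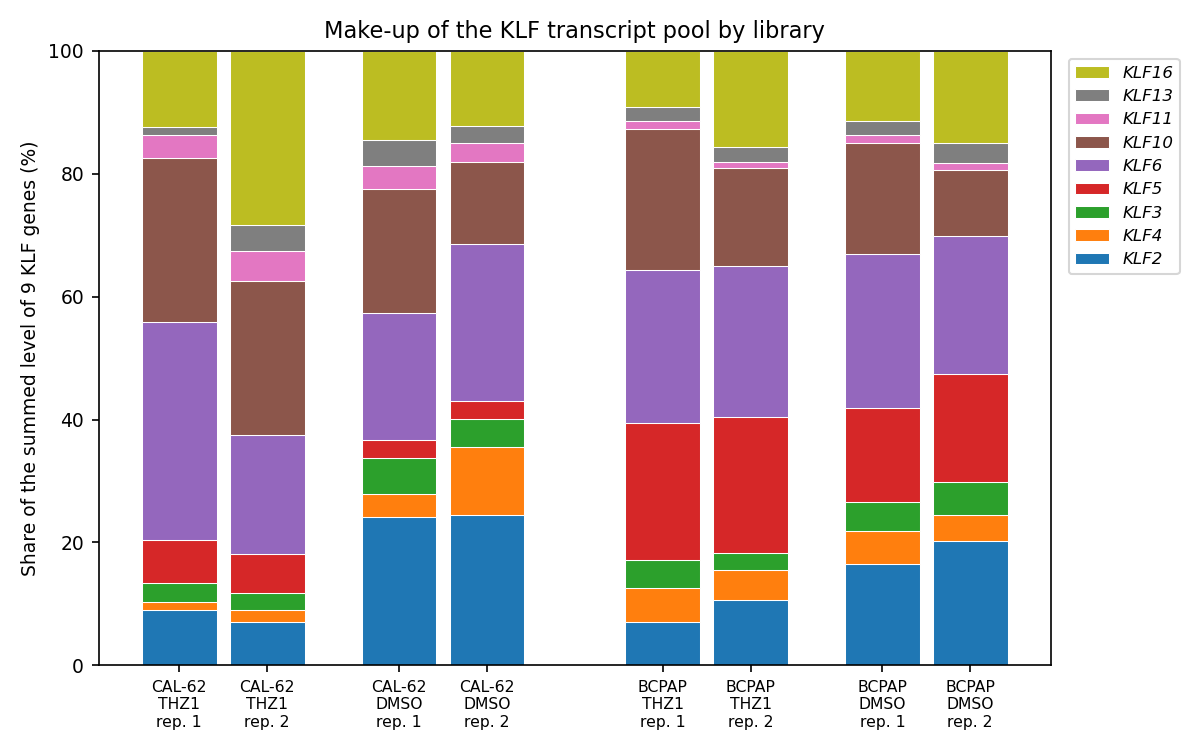
Share of each gene (per cent) in the summed RPKM-type level of the 9 KLF genes listed for both lines, 1 bar per library, THZ1 bars left of DMSO bars within each line. The KLF2 share at the bottom of the bars is 7.04% to 10.7% in the 4 THZ1 libraries, against 16.4% to 24.5% in the 4 DMSO libraries.

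KLF4, a relative of KLF2 that acts in epithelial differentiation and is one of the factors used to reprogram cells to pluripotency, had the most negative fitted change in CAL-62. It had values of 1.90 and 1.59 in the CAL-62 THZ1 libraries (77 and 87 reads), against 3.63 and 19.1 in the DMSO libraries (230 and 1323 reads). The THZ1 libraries were close together and low, while the DMSO libraries differed from each other by 5.27-fold. The log2 change was −1.82 (SE 0.58, 95% interval −3.16 to −0.47, limma adjusted p 0.0916). Without CAL-62 DMSO replicate 1 the change was −2.88 (limma adjusted p 0.0452), and without CAL-62 DMSO replicate 2 it was −0.76 (0.292). It also passed with ribosomal protein genes as the reference (0.0198).

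In BCPAP, KLF4 had values of 9.48 and 8.31 in the THZ1 libraries, against 7.70 and 6.28 in the DMSO libraries. By deposited values, both THZ1 libraries were above both DMSO libraries, the opposite order to CAL-62. By reads, BCPAP THZ1 replicate 2 had 432 for KLF4, against 447 in BCPAP DMSO replicate 1. Reads in listed genes were 19332138 and 18572597 in the same order, so the BCPAP groups overlapped per listed read. The log2 change was 0.31 (SE 0.58, 95% interval −1.03 to 1.66, limma adjusted p 0.959). With ribosomal protein genes as the reference that change was 0.06, where the median of all genes was −0.19. The difference of the 2 changes, CAL-62 minus BCPAP, was −2.13 (SE 0.82, 95% interval −4.03 to −0.23), which did not pass (limma adjusted p 0.843).

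KLF3, which recruits CTBP corepressors, had values of 4.36 and 2.41 in the CAL-62 THZ1 libraries, against 5.69 and 7.89 in the DMSO libraries. The groups did not overlap, and the log2 change was −0.85 (SE 0.33, limma adjusted p 0.139). In BCPAP the groups overlapped, with 7.84 and 4.51 in the THZ1 libraries, against 6.84 and 7.85 in the DMSO libraries. The antisense gene KLF3-AS1 overlaps KLF3, and the strand setting of the counting is not given in the sources used here, so reads of the pair cannot be told apart.

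KLF5, which drives proliferation in gut and other epithelia, did not pass the THZ1 test in either line. Its deposited values were higher in every THZ1 library than in any DMSO library of the same line. Its values were 9.80 and 5.44 in the CAL-62 THZ1 libraries, against 2.90 and 4.93 in the DMSO libraries (log2 change 0.79, SE 0.31, 95% interval 0.07 to 1.52, limma adjusted p 0.139). With ribosomal protein genes as the reference that change was 0.02, where the median of all genes was −0.75. By reads, CAL-62 THZ1 replicate 2 had 341 for KLF5, against 389 in CAL-62 DMSO replicate 2. Reads in listed genes were 19988647 and 19328379 in the same order, so the CAL-62 groups overlapped per listed read. In BCPAP its values were 38.0 and 37.5 in the THZ1 libraries, against 21.9 and 25.6 in the DMSO libraries. These libraries were tight within each group, with means of 37.7 ± 0.296 with THZ1 and 23.8 ± 2.65 with DMSO (SD, n = 2 each). The log2 change in BCPAP was 0.65 (SE 0.31, 95% interval −0.07 to 1.37, limma adjusted p 0.932). The variance is shared over the 4 groups in the fit, and the CAL-62 libraries were wider apart.

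KLF6, described as a growth inhibitor whose loss is known in several carcinomas, had the highest mean of the KLF genes in 3 of the 4 groups. In CAL-62 its values were 49.7 and 16.8 in the THZ1 libraries, against 20.0 and 44.4 in the DMSO libraries. The groups overlapped completely, and the libraries differed 2.97-fold with THZ1 and 2.23-fold with DMSO. The log2 change was −0.04 (SE 0.51, 95% interval −1.21 to 1.13), an interval that leaves changes of more than 2-fold in either direction undecided. In BCPAP KLF6 had 42.2 and 41.7 in the THZ1 libraries, against 36.1 and 33.1 in the DMSO libraries, a log2 change of 0.27 (SE 0.51, limma adjusted p 0.959) that was −0.01 with ribosomal protein genes as the reference.

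**Figure D3:**
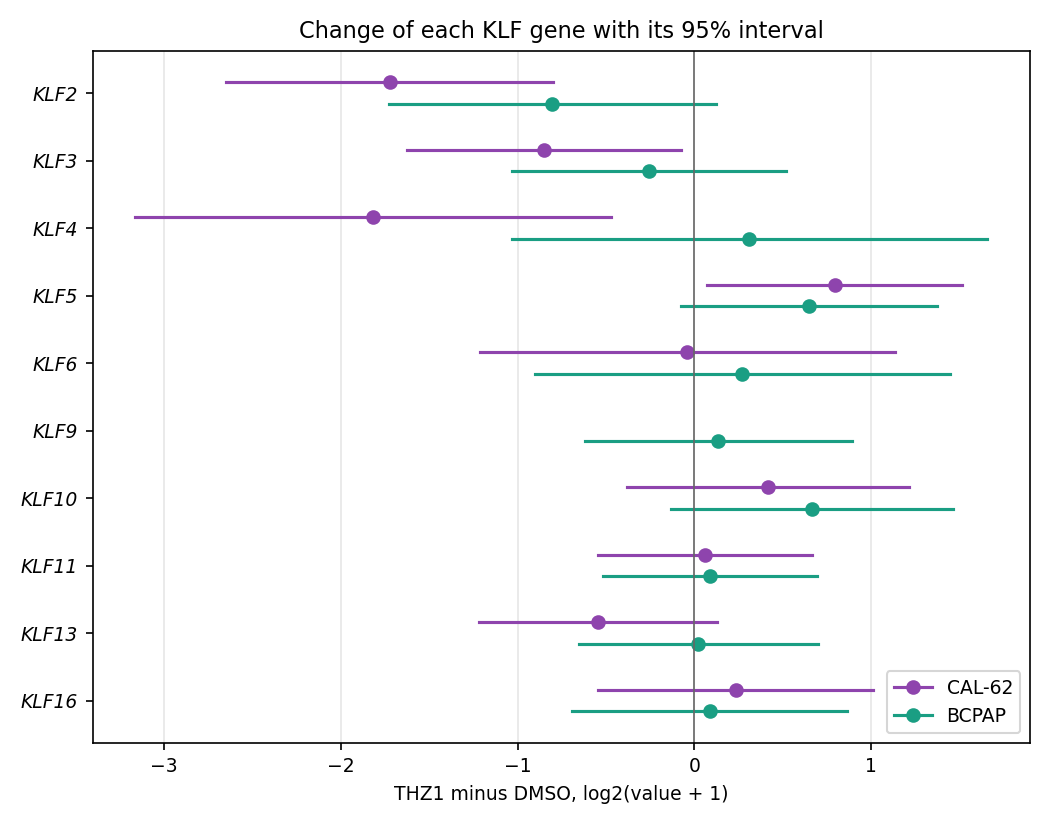
Log2 change, THZ1 minus DMSO on the log2(value + 1) scale, of each KLF gene in CAL-62 and in BCPAP. Points are estimates from 2 libraries a group and lines are 95% intervals. In CAL-62 the intervals of KLF2 (−2.65 to −0.80), KLF3 (−1.63 to −0.08), KLF4 (−3.16 to −0.47) and KLF5 (0.07 to 1.52) do not reach 0, and all BCPAP intervals include 0.

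KLF10 and KLF11, repressors first known as TGF-beta-inducible early genes, behaved unlike each other in level. KLF10 had values of 37.5 and 21.6 in the CAL-62 THZ1 libraries, against 19.4 and 22.9 in the DMSO libraries. These groups overlapped (log2 change 0.42, SE 0.34, limma adjusted p 0.439), and with ribosomal protein genes as the reference the change was −0.48. In BCPAP KLF10 had 39.1 and 27.1 in the THZ1 libraries, against 25.9 and 15.7 in the DMSO libraries. These deposited values did not overlap between the groups, but they did per listed read. BCPAP THZ1 replicate 2 had 1645 reads for KLF10 of 19332138 in listed genes, against 1752 of 18572597 in BCPAP DMSO replicate 1. The log2 change was 0.66 (SE 0.34, 95% interval −0.13 to 1.46, limma adjusted p 0.932), the largest positive one among KLF genes in that line. KLF11 had 5.36 and 4.10 in the CAL-62 THZ1 libraries, against 3.72 and 5.32 in the DMSO libraries. In BCPAP it had 2.33 and 1.56 in the THZ1 libraries, against 1.79 and 1.70 in the DMSO libraries. KLF11 overlapped between the groups in both lines.

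KLF9, KLF13 and KLF16 belong, with KLF10 and KLF11, to the branch of the family that binds the SIN3A corepressor. KLF9, known in rodents and frogs as a gene induced by thyroid hormone and glucocorticoids, was listed for BCPAP alone, at 1.43 and 2.16 in the THZ1 libraries, against 1.04 and 2.12 in the DMSO libraries. Its groups overlapped, and since genes with a DMSO mean under about 1 are outside the tables, its level in CAL-62 is not known beyond that. KLF13, which regulates the chemokine CCL5 in T cells, had 1.91 and 3.68 in the CAL-62 THZ1 libraries, against 3.99 and 4.79 in the DMSO libraries. Those groups did not overlap (log2 change −0.54, SE 0.29, limma adjusted p 0.247). In BCPAP KLF13 had 3.95 and 4.30 in the THZ1 libraries, against 3.43 and 4.73 in the DMSO libraries, with overlap. KLF16 overlapped in both lines, with 17.3 and 24.5 in CAL-62 THZ1 libraries, against 14.1 and 21.3 in DMSO libraries. In BCPAP KLF16 had 15.5 and 26.4 in the THZ1 libraries, against 16.3 and 22.1 in the DMSO libraries.

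Across BCPAP, 0 of the 10 KLF genes were called, beside 0% of all genes, and their median log2 change was 0.11, against 0.07 for all genes. By deposited values, the THZ1 libraries were all higher for 4 of the 10 (KLF4, KLF5, KLF6 and KLF10) and all lower for 1 (KLF2). Over all genes these shares were 21.9% higher and 16.4% lower, 38.3% together. Per listed read, the groups overlapped for KLF4, KLF6 and KLF10. BCPAP THZ1 replicate 2 had 432, 3446 and 1645 reads for these genes, of 19332138 in listed genes. BCPAP DMSO replicate 1 had 447, 3331 and 1752, of 18572597. Shares of all genes were not counted per listed read. The smallest limma adjusted p among the KLF genes was 0.932.

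The order of the levels differed between the groups. In CAL-62 with THZ1, KLF6 (33.2), KLF10 (29.5) and KLF16 (20.9) came first by mean, and neighbouring genes in that order overlapped. KLF2 (9.35) and KLF5 (7.62) followed, overlapping each other and apart from KLF16 above and KLF11 (4.73) below, and KLF4 (1.74) came last. In CAL-62 with DMSO, KLF2 (32.9) and KLF6 (32.2) came first and KLF5 (3.92) last, and all neighbours overlapped except KLF3 (6.79) and KLF11 (4.52). In BCPAP with THZ1, KLF6 (42.0) stood above KLF5 (37.7), KLF5 and KLF10 (33.1) overlapped, and KLF16 (21.0), KLF2 (15.0), KLF4 (8.90), KLF3 (6.17), KLF13 (4.12), KLF11 (1.95) and KLF9 (1.79) followed. In BCPAP with DMSO, KLF6 (34.6) stood apart from KLF2 (26.6), and KLF2, KLF5 (23.8), KLF10 (20.8) and KLF16 (19.2) overlapped each with the next. KLF3 (7.35) and KLF4 (6.99) overlapped below these, then came KLF13 (4.08), and KLF11 (1.74) and KLF9 (1.58) overlapped at the low end. KLF2 was therefore among the first 2 by mean in both DMSO groups, at place 5 in BCPAP with THZ1 and at place 4 in CAL-62 with THZ1.

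Under DMSO the lines differed in 2 of the 9 KLF genes listed for both. For this comparison the libraries were put on 1 scale by median of ratios, which changed the deposited values by factors of 0.955 to 1.04, and the values printed are the deposited ones. KLF5 was lower in CAL-62, at 2.90 and 4.93, against 21.9 and 25.6 in BCPAP (log2 difference −2.35, SE 0.31, 95% interval −3.07 to −1.64, limma adjusted p 0.00454). KLF11 was higher in CAL-62, at 3.72 and 5.32, against 1.79 and 1.70 in BCPAP (log2 difference 1.00, SE 0.26, limma adjusted p 0.0408). Of 10652 genes tested, 14.4% were called, 6.52% higher and 7.85% lower in CAL-62. KLF5 and KLF11 were also the 2 of 9 KLF genes whose DMSO libraries did not overlap between the lines, 1 in each direction, beside 66.5% of all genes (33.3% higher and 33.3% lower in CAL-62). The other 7 KLF genes had log2 differences between −0.20 and 0.29 and limma adjusted p between 0.704 and 0.913. The KLF5 call held with any 1 library left out, with adjusted p up to 0.0408 in the limma fits. The KLF11 call was lost (limma adjusted p 0.0516 to 0.226) without any 1 of the 2 CAL-62 DMSO, 2 BCPAP DMSO or 2 BCPAP THZ1 libraries. COL1A1, a fibroblast marker, was also higher in CAL-62 with DMSO, at 39.8 and 31.0, against 6.08 and 6.52 in BCPAP, and its part in the KLF differences was not tested.

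Of 16 other genes of the KLF and SP families, KLF7, KLF12, SP1, SP2, SP3 and SP4 were listed, the same 6 in both lines. SP factors bind the GC box and compete with KLF proteins for it. None of the 6 was called for THZ1 in either line. In CAL-62 their median log2 change was −0.50, and 5 of 6 were negative. SP1 had 7.94 and 3.70 in the CAL-62 THZ1 libraries, against 18.1 and 14.1 in the DMSO libraries (log2 change −1.39, SE 0.38, limma adjusted p 0.0704). SP2 had 3.82 and 6.84 in the CAL-62 THZ1 libraries, against 11.1 and 11.2 in the DMSO libraries (log2 change −0.98, SE 0.27, limma adjusted p 0.0697). In BCPAP the 6 had a median of −0.04, and the largest changes were those of KLF12 at 0.48 and SP2 at −0.43, neither called.

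Of 10 cofactors, 1 was called in CAL-62, HDAC1, beside 4.62% of all genes (0.581% higher). HDAC1, a histone deacetylase of the SIN3 corepressor complexes, rose to 111.5 and 107.0 in the THZ1 libraries, against 52.5 and 53.0 in the DMSO libraries (log2 change 1.04, SE 0.20, limma adjusted p 0.0365). With ribosomal protein genes as the reference its change was 0.11 (limma adjusted p 0.726), and it lost its call (0.0698 to 0.209) without either CAL-62 THZ1, either CAL-62 DMSO or either BCPAP DMSO library. In BCPAP HDAC1 had 94.4 and 126.0 in the THZ1 libraries, against 78.9 and 83.1 in the DMSO libraries, which was not called. SIN3A, the scaffold that several KLF repressors bind, had 11.1 and 5.64 in the CAL-62 THZ1 libraries, against 16.0 and 15.8 in the DMSO libraries (log2 change −0.91, limma adjusted p 0.102). SIN3B had a log2 change of −0.41 in BCPAP, which was not called. The median of the 10 cofactors was 0.16 in CAL-62 and 0.05 in BCPAP.

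**Figure D4:**
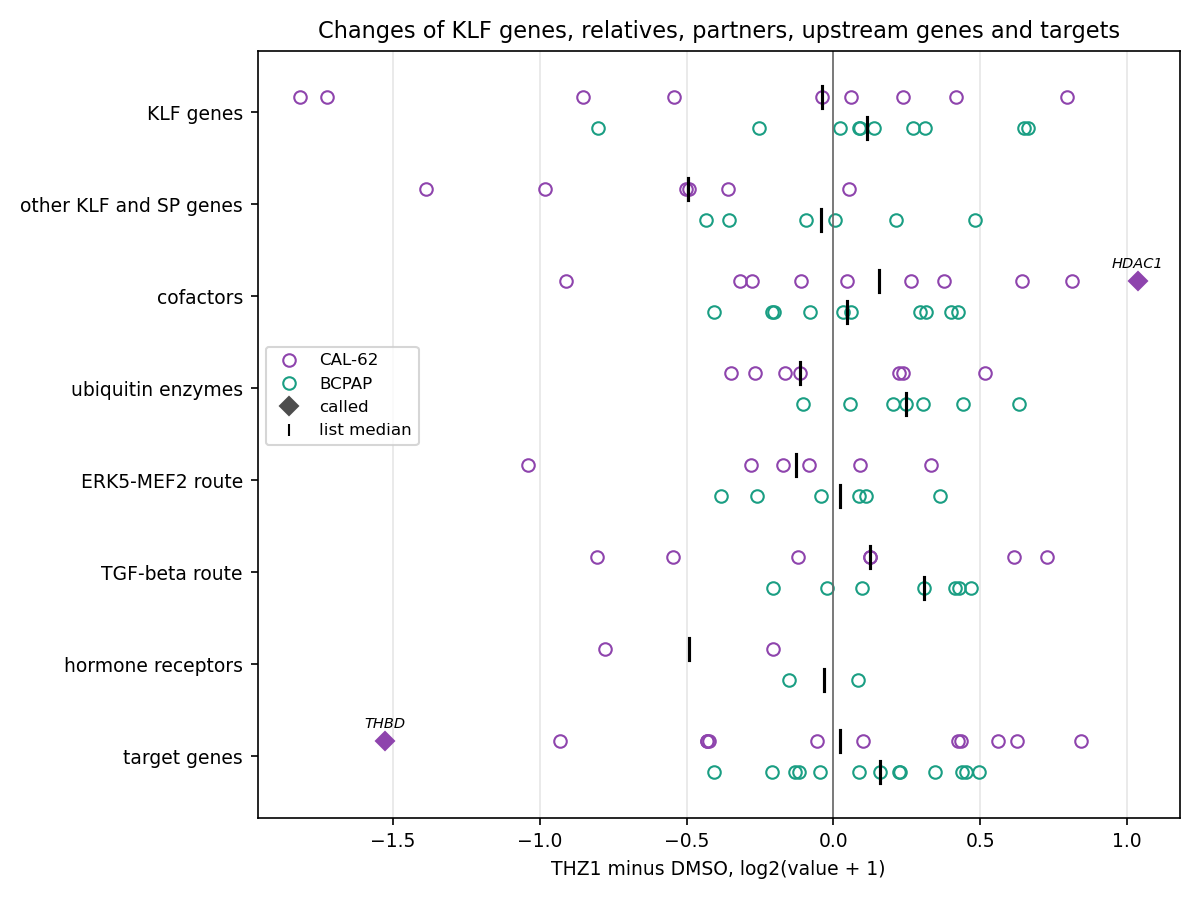
Log2 change, THZ1 minus DMSO on the log2(value + 1) scale, of the KLF genes and of genes in 7 lists of relatives, partners, upstream genes and targets, CAL-62 above BCPAP in each row. Each point is a gene, filled diamonds are called genes and black strokes are medians. HDAC1 (1.04) and THBD (−1.53) in CAL-62 are the called genes shown.

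Upstream of KLF2 and KLF4, 6 of 7 genes of the ERK5 and MEF2 route were listed, without MEF2C, and none was called for THZ1 in either line. MAPK7, which encodes ERK5, had 4.45 and 7.38 in the CAL-62 THZ1 libraries, against 10.6 and 15.6 in the DMSO libraries (log2 change −1.04, SE 0.30, limma adjusted p 0.0763), and it passed with ribosomal protein genes as the reference (0.00970). In BCPAP MAPK7 had 5.13 and 5.34 in the THZ1 libraries, against 6.12 and 8.27 in the DMSO libraries (log2 change −0.38, not called). MAP3K2, an upstream kinase of the route, had log2 changes of 0.33 in CAL-62 and 0.36 in BCPAP, and its groups overlapped in both lines. The medians of the 6 were −0.13 in CAL-62 and 0.02 in BCPAP.

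Of 7 genes of the TGF-beta route, which induces KLF10 and KLF11, none was called for THZ1. In CAL-62 the common SMAD partner SMAD4 had a log2 change of −0.81 (limma adjusted p 0.0922) and the ligand TGFB1 one of 0.73 (0.113). In BCPAP the receptor TGFBR1 had 0.47 and the inhibitory SMAD7 0.43. Of 3 hormone receptors that act on KLF9, the glucocorticoid receptor NR3C1 and the thyroid hormone receptor THRA were listed in both lines, and neither was called. Of 7 ubiquitin enzymes that act on KLF proteins, none was called for THZ1. The largest log2 changes in that list were 0.51 for SMURF1 and −0.35 for SIAH1 in CAL-62, and 0.63 for FBXW7 and 0.44 for SMURF1 in BCPAP.

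Of 18 genes reported as KLF targets in other tissues, 12 were listed for CAL-62 and 13 for BCPAP. Of these, 1 of 12 was called for THZ1 in CAL-62, THBD, beside 4.62% of all genes (4.04% lower), and 0 of 13 in BCPAP, where 0% of all genes were called. THBD encodes thrombomodulin, an anticoagulant surface protein that KLF2 induces in endothelial cells. It fell to 13.0 and 7.83 in the CAL-62 THZ1 libraries, against 28.5 and 33.9 in the DMSO libraries (log2 change −1.53, SE 0.31, 95% interval −2.26 to −0.80, limma adjusted p 0.0417). Both THZ1 libraries were well under both DMSO libraries. The call was lost with a pseudocount of 0.1 (limma adjusted p 0.0549), with a filter at a mean value of 5 (0.0523), and without CAL-62 THZ1 replicate 2, either CAL-62 DMSO or either BCPAP DMSO library (0.0688 to 0.237). In BCPAP THBD was low, at 2.62 and 1.58 in the THZ1 libraries, against 3.07 and 2.07 in the DMSO libraries, and the groups overlapped. The difference of the THBD responses, CAL-62 minus BCPAP, was −1.32 (SE 0.45), with a limma adjusted p of 0.834.

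LGALS3, the gene of galectin-3, had 34.5 and 35.0 in the CAL-62 THZ1 libraries, against 17.3 and 20.8 in the DMSO libraries (log2 change 0.84, SE 0.20, limma adjusted p 0.0534). In BCPAP LGALS3 had 26.9 and 32.0 in the THZ1 libraries, against 21.2 in each DMSO library. The growth factor gene PDGFA had a log2 change of −0.93 in CAL-62 (limma adjusted p 0.117), and the cell cycle inhibitor CDKN1A one of 0.49 in BCPAP (limma adjusted p 0.932). The median of the target list was 0.02 in CAL-62 and 0.16 in BCPAP.

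Between the lines under DMSO, 7 of the 49 genes of these lists that were tested were called, a share of 14.3%, near the 14.4% of all genes called. THBD was higher in CAL-62, at 28.5 and 33.9, against 3.07 and 2.07 in BCPAP (log2 difference 3.19, SE 0.31, limma adjusted p 0.00156). ODC1, an enzyme of polyamine synthesis, was also higher in CAL-62, at 323 and 288, against 154 and 93.5 in BCPAP, and so was SMURF1, at 13.9 and 17.2, against 7.40 and 8.70 in BCPAP. TXNIP, which binds thioredoxin and restrains glucose uptake, was lower in CAL-62, at 1.22 and 6.38, against 17.6 and 22.5 in BCPAP. On the TGF-beta route, the receptor TGFBR2 was lower in CAL-62, at 10.8 and 10.1, against 30.0 and 22.2 in BCPAP, and SMAD7 at 2.80 and 4.53, against 14.1 and 8.88 in BCPAP. The acetyltransferase KAT2B was lower in CAL-62, at 1.80 and 1.32, against 3.58 and 3.88 in BCPAP. The THBD call held with any 1 library left out. The other 6 were lost without some of the DMSO libraries, TGFBR2, SMAD7, KAT2B and SMURF1 without any 1 of the 4, TXNIP without either BCPAP library or CAL-62 replicate 1, and ODC1 without either CAL-62 library or BCPAP replicate 2. KAT2B and SMURF1 were lost without either BCPAP THZ1 library as well.

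Among 7018 genes with a mean of at least 5 in each line, those whose values followed KLF2 most closely over the 8 libraries, after centring on each line's mean, were ADPRHL2 (Pearson r 0.991), RARA (0.978) and TRIM11 (0.962). These r values describe 8 libraries in 4 groups that share treatment and library scale, and they are the highest of many. ADPRHL2 encodes an ADP-ribose hydrolase, RARA a retinoic acid receptor and TRIM11 a ubiquitin ligase. ADPRHL2 had 8.82 and 5.91 in the CAL-62 THZ1 libraries, against 11.7 and 15.2 in the DMSO libraries. In BCPAP ADPRHL2 had 27.6 and 29.9 in the THZ1 libraries, against 33.7 and 39.3 in the DMSO libraries. RARA had 4.75 and 3.18 in the CAL-62 THZ1 libraries, against 6.74 and 12.2 in the DMSO libraries. In BCPAP RARA had 5.17 and 5.51 in the THZ1 libraries, against 6.93 and 8.22 in the DMSO libraries. In each line and for each of these 3 genes both THZ1 libraries were below both DMSO libraries, as for 27.4% of all genes in CAL-62 and 16.4% in BCPAP. The 3 were chosen for following KLF2, which had that order, so the order is no separate result. None of the 3 was called for THZ1 in either line (limma adjusted p 0.0859, 0.0790 and 0.0579 in CAL-62). Under DMSO, ADPRHL2 was called lower in CAL-62 than in BCPAP (log2 difference −1.38, SE 0.24, limma adjusted p 0.0126), beside 14.4% of all genes called. Within the family, r with KLF2 was 0.80 for KLF3, 0.73 for KLF4, 0.34 for KLF6, −0.10 for KLF16, −0.43 for KLF10 and −0.47 for KLF5.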

How the data were processed

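RNA of 8 libraries (CAL-62 and BCPAP, THZ1 and DMSO, 2 each) was sequenced after oligo(dT) selection. Bowtie2, DESeq2 and hg19 are named, without roles, in the submitters' processing notes. What annotation and strand setting the counting used is not given in the sources used here. Per gene and library, the authors deposited 1 value, taken to be RPKM-type from the values alone, since nothing in the files names a unit. Every value of all 12715 genes equalled whole reads over a whole gene length and a library factor within 0.02 reads, so reads were recovered from it. Genes with a DMSO mean under about 1 in a line are outside that line's table (lowest mean 1.00), so a gene raised by THZ1 to a higher level would not be seen. The deposited scaling sets a typical gene level between libraries of a line, so a change in all transcripts together would not show.

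Differences were fitted with limma 3.58.1 (R 4.3.3) on log2(value + 1), which understates the change of low genes, for genes averaging at least 1, with a mean per group, 1 spread over all 8 libraries and a mean-variance trend. Genes listed for 1 line were fitted on its 4 libraries. The lines were compared after median-of-ratios scaling of all libraries. P-values, two-sided, were adjusted by Benjamini-Hochberg over all genes tested, and called means an adjusted p under 0.05.

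Named are the KLF genes, from each list the called genes and the 2 with the largest change in each line, and the 3 genes most like KLF2 by Pearson r. The members and lists were chosen with earlier results of these data known. Alternatives were pseudocounts of 0.1 and 5, no filter or a filter at 5, a replicate block, 3 other scalings, limma-voom on recovered reads, a fit on each line alone, and each library left out. Promoter letters were taken from RefSeq (GRCh38.p14) and searched with Python 3.11.15.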

Additional observations from a re-analysis of the deposited data

Results flagged for a closer look

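KLF4 was picked out because its deposited values went opposite ways in the 2 lines. In CAL-62 both THZ1 libraries (1.90 and 1.59) were below both DMSO libraries (3.63 and 19.1), and in BCPAP both THZ1 libraries (9.48 and 8.31) were above both DMSO libraries (7.70 and 6.28). The difference of the log2 changes, CAL-62 minus BCPAP, was −2.13 (SE 0.82), with an unadjusted limma p of 0.0326 and a limma adjusted p of 0.843, so it failed the correction over 10653 genes. With 1 library left out the difference lay between −3.19 and −1.07. Per listed read the BCPAP groups overlapped, with 432 of 19332138 reads in THZ1 replicate 2, against 447 of 18572597 in DMSO replicate 1. The share of all genes with opposite orders in the 2 lines was not counted, and the cause of the opposite order was not tested.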

How the results depend on the processing

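In BCPAP and in the difference of the responses, 0 KLF genes were called under every alternative run. In CAL-62 the number of KLF genes called, 0 as reported, was 1 with upper-quartile scaling (KLF2), 4 with ribosomal protein genes as the reference (KLF2, KLF3, KLF4 and KLF13) and 0 to 1 with 1 library left out. Those scalings shifted the median of all genes to −0.11 and −0.75 on the log2 scale, and relative to that median KLF2 was at −1.77 and −1.83, against −1.75 as reported. All-gene calls in CAL-62 were 525 as reported, 196 with a filter at 5, 717 with the upper quartile, 3037 with ribosomal protein genes (4 higher) and 0 to 833 with a library left out, 0 of them without CAL-62 DMSO replicate 2. A fit on the line alone called 0 genes, THBD and HDAC1 at an adjusted p of 0.0842 included.

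Same-numbered libraries deviated together (r 0.780 in BCPAP, 0.470 in CAL-62), but the labels do not say what the numbers mark, so samples were not taken as pairs. With a replicate block, 2 KLF genes were called in CAL-62, KLF2 (adjusted p 0.0164) and KLF4 (0.0285), among 4563 genes, 2503 higher and 2060 lower. Of the other genes named, the block also called SP1 (0.00840), MAPK7 (0.00851), TGFB1 (0.0104), SP2 (0.0139), SMAD4 (0.0201), SIN3A (0.0301) and NR3C1 (0.0424) in CAL-62. Ribosomal scaling called the same genes other than TGFB1 (0.00970 to 0.0462) and PDGFA (0.0265), and upper-quartile scaling SP2 (0.0496). The block called 4310 genes between the lines, in place of 1530, KLF5 and KLF11 among them. Between the lines the KLF calls, 2 as reported, were 1 with a filter at 5, which leaves KLF11 untested, and 1 to 2 with a library left out, where all-gene calls were 257 to 1905. SMURF1 lost its call there with a pseudocount of 5 (adjusted p 0.0574) and with the deposited scaling (0.0538).

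Signs turned for some changes that were not called. Another scaling moves all genes of a library alike, and with ribosomal protein genes as the reference, where the CAL-62 median of all genes was −0.75, KLF10 and KLF16 were at 0.27 and 0.10 relative to that median. The CAL-62 changes were then −0.48 for KLF10, −0.70 for KLF11, −0.65 for KLF16, −0.46 for MAP3K2, −0.37 for SMURF1 and −0.20 for TGFB1. The BCPAP changes were then −0.075 for KLF11, −0.21 for KLF13, −0.19 for KLF16, −0.014 for KLF6, −0.042 for KLF9 and −0.19 for NR3C1. Upper-quartile scaling gave −0.078 for KLF11 in CAL-62, and −0.059 for KLF13, −0.0096 for KLF16 and −0.0126 for NR3C1 in BCPAP, and median-of-ratios scaling gave −0.00877 for KLF13 in BCPAP.

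With 1 library left out, changes in BCPAP ranged from −0.60 to 0.085 for KLF3, −0.17 to 0.44 for KLF9, −0.10 to 0.28 for KLF11, −0.16 to 0.21 for KLF13, −0.28 to 0.46 for KLF16, −0.11 to 0.83 for MAP3K2, −0.31 to 0.48 for NR3C1 and −0.38 to 0.072 for THRA. In CAL-62 they ranged from −0.80 to 0.72 for KLF6, −0.15 to 0.27 for KLF11, −0.047 to 0.52 for KLF16, −0.27 to 0.93 for MAP3K2, −1.06 to 0.36 for SIAH1 and −0.59 to 0.19 for THRA.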

Other observations

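Between the 2 libraries of a group, replicate 2 was higher than replicate 1 in all 4 groups for KLF13 and KLF16, that is for 2 of the 9 KLF genes listed for both lines, and lower in all 4 groups for 0 of them. Over all 10653 genes tested in both tables, replicate 2 was higher in all 4 groups for 2349 genes and lower in all 4 for 2660, together 47.0%. What a replicate number stands for is not said in the labels.

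The CAL-62 libraries of a group were further apart than most genes would be for several KLF genes. The median absolute difference between the 2 libraries over all genes was 0.38 with THZ1 and 0.26 with DMSO in CAL-62, on the log2(value + 1) scale. For KLF6 it was 1.51 with THZ1 and 1.12 with DMSO, for KLF2 0.93 with THZ1 and 0.84 with DMSO, and for KLF4 0.17 with THZ1 and 2.12 with DMSO. In BCPAP the same difference for KLF6 was 0.02 with THZ1 and 0.12 with DMSO, against a median over all genes of 0.35 with THZ1 and 0.25 with DMSO.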
